A study of Homo sapiens with 4 samples.

Results

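In the RNA recovered with PARP1 from HK-2 cells, 694 of 166248 listed sites of the first immunoprecipitation (IP 1) and 738 of 229782 listed sites of the second (IP 2) lay in the 5′ untranslated region (5′ UTR) of a messenger RNA. They made up 0.417% of the IP 1 list (95% exact binomial interval 0.387% to 0.450%) and 0.321% of the IP 2 list, 1432 of 396030 rows in all. A site was taken when the authors' region label for it began with the 5′ UTR class, whatever its mutation type, and no measured value entered the choice.

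HK-2 is an immortalised human proximal tubule epithelial line, and PARP1 is an abundant enzyme of the nucleus that senses broken DNA and modifies proteins there with chains of ADP-ribose. Lysates were immunoprecipitated with a Flag antibody, and the co-purified RNA was sequenced after random-primed reverse transcription and amplification. The series holds 4 samples, of which 2 are PARP1 IPs and 2 are inputs. The inputs were not analysed here, no control IP with another antibody is among the samples, no crosslinking step is described, and the labels do not say whether a tagged PARP1 was introduced into the cells. Whether the 2 IPs are separate cultures is not stated, so differences between them may be technical. With 2 IPs and no analysed control, no test between groups was possible, and intervals below cover counting error only.

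Each listed site is 1 base on 1 strand of the GRCh38 build, with 2 counts from the authors. The first is the number of sequenced tags over the base, and the second counts the mutated tags among them. A mutation is a substitution, a deletion or an insertion relative to the genome. An mRNA covered by many tags that all match the genome therefore gives no site, and the number of sites does not measure how much of an mRNA was recovered.

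The 5′ UTR is the stretch that the small ribosomal subunit scans from the cap to the start codon. Its length, its G and C content, its structure and any upstream start codons influence how often the main reading frame is translated. In human genes it is often rich in CpG dinucleotides and in short G and C repeats, because it overlaps the promoter CpG island.

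The 5′ UTR stretches printed here hold the bases on which the results turn. Each is a stretch of 30 bases of the mRNA strand from the GENCODE release 29 transcript sequences, written 5′ to 3′, with the listed base in capitals. The first set holds substitutions listed at the same base in both IPs.
UGCG (chr9:111896878-111896907, plus strand): cggaggtgcccgcgCgcagggtctggtggg
CNTROB (chr17:7932327-7932356, plus strand): ggtggagagtaggcGgaaccaggtggtcgt
TIMELESS (chr12:56434175-56434204, minus strand): ccacttccttctctGttggttggtccactg
ITCH (chr20:34369396-34369425, plus strand): accatgcatttcacGgtggccttgtggaga
STK38 (chr6:36547248-36547277, minus strand): gcttcgccagccttCaagtcgagactactg
DNAJA1 (chr9:33025312-33025341, plus strand): ggtaactaccccggCtgcgcacagctcggc

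The second set holds deletions listed in both IPs, with the deleted bases in capitals. It is shown because the deleted bases of PLEKHA4, NFE2L2, SBF1 and RPS6KA3 lie in tandem repeats and those of CTDNEP1 and ANXA11 do not. Which copy of a repeat was lost cannot be told from a list, and the capitals mark the coordinates the authors gave.
CTDNEP1 (chr17:7251805-7251834, minus strand): cccctccccctcctTccctgctccttcgct
ANXA11 (chr10:80205426-80205455, minus strand): gtgggacccagcccCtaggcagaacccagg
PLEKHA4 (chr19:48868239-48868268, minus strand): gagagagagagagaGAccgtaagagacagg
NFE2L2 (chr2:177264649-177264678, minus strand): cgccgccgccgccGCCaccagagccgccct
SBF1 (chr22:50474952-50474981, minus strand): ccgccgccgccgcCGCggagcgaaccaggg
RPS6KA3 (chrX:20266733-20266762, minus strand): tgccgctgccgcTGCCGCcgccgccgccgc

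The third set holds deletions listed in 1 IP that span whole repeat units, and the insertion of IGF1R, which is in both lists.
VLDLR (chr9:2622137-2622166, plus strand): gcggagcgaaCGGCGGCGGcggcggcggcg
CCNI (chr4:77075631-77075660, minus strand): gcgcccgcgcccGCGCCCcccgatccgctt
BRWD1 (chr21:39313503-39313532, minus strand): cgctcgctcgctcGCTCccgcctcccgccc
YWHAH (chr22:31944569-31944598, plus strand): gcggcggcgctGCCTGCAgcctgcagcctg
IGF1R (chr15:98649017-98649046, plus strand): cggcgagcggagccAggaggaggaggagga

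Recurrence between the IPs was described first, because it compares the 2 lists base by base. Without an analysed control, it does not show that a shared base depends on PARP1. Whether shared bases also differ from GRCh38 in the DNA of the line was not tested. There were 66 5′ UTR bases in both lists, which is 9.51% of the IP 1 sites (95% interval 7.43% to 11.9%) and 8.94% of the IP 2 sites (6.98% to 11.2%). Over all sites of the series the same shares were 4.17% and 3.02%. In coding sequence they were 5.70% and 5.22%, and in 3′ UTRs 6.36% and 5.44%. The lower bounds for 5′ UTR sites lay above these other shares in both IPs. In exons of noncoding genes recurrence was 8.97% and 7.47%, within the 5′ UTR intervals, so it did not set the 5′ UTR apart from that class. Sites of 1 list share a library, so these intervals describe the lists and do not extend to further IPs.

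All 66 shared bases carried the same mutation type and the same region class in both lists, and they fell in 50 genes. Of them, 40 were substitutions, 23 were deletions and 3 were insertions. Every tag was mutated in both IPs at 34 of the 40 substitutions, at 9 of the 23 deletions and at 0 of the 3 insertions. Of the 66 bases, 20 had 2 tags in each IP. With the tags of both IPs summed, the median was 7 and the deepest base had 24. IP 1 had more tags at 18 shared bases, IP 2 had more at 28, and 20 were equal.

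The shared bases with the most mutated tags were in genes of several kinds. UGCG, the glucosylceramide synthase that makes the first glycosphingolipid, had a substitution at base 127 of its 450-base 5′ UTR. There 7 of 9 tags were mutated in IP 1 and 6 of 11 in IP 2. CNTROB, a centriole protein, had a substitution at base 187 of a 925-base 5′ UTR, with 6 of 10 tags mutated in IP 1 and 5 of 9 in IP 2. At both genes some tags were unmutated in each IP, and the mutated share was the larger part each time.

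TIMELESS, a subunit of the complex that protects replication forks, had a substitution 20 bases before its start codon in exon 2. All 4 tags of IP 1 and all 6 tags of IP 2 carried it. ITCH, a ubiquitin ligase, had one 82 bases before the start codon, inside an upstream reading frame, with 3 of 4 tags mutated in IP 1 and 4 of 6 in IP 2. The kinase gene STK38 had 3 of 11 tags mutated in IP 1 and 3 of 3 in IP 2 at a base 79 bases before the start codon. STK38 was thus the named substitution whose mutated share differed most between the IPs.

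The remaining named substitutions had every tag mutated in both IPs. PLLP, a myelin and epithelial membrane protein, had 3 tags in IP 1 and 5 in IP 2. PCNX4 had 3 tags in IP 1 and 4 in IP 2 at one base, and 3 and 2 tags at a second base 12 bases upstream, so that the same tags can cover both. DNAJA1, a co-chaperone of the heat-shock protein Hsp70, had 3 tags in IP 1 and 4 in IP 2, and 6 annotated pseudogenes carry its name. How reads that match several places were assigned is not stated, and of the 50 genes with a shared base 8 have pseudogenes named after them.

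Shared deletions fell in 10 genes, with 19 of the 23 bases in runs of 2 or more adjacent bases and 15 in tandem repeats. CTDNEP1, a phosphatase of the nuclear envelope, had 1 thymine deleted in a pyrimidine stretch, in all 9 tags of IP 1 and all 6 of IP 2. ANXA11, an annexin, had 1 cytosine deleted in all 5 tags of IP 1 and all 3 of IP 2. Both lie outside repeats, and no unmutated tag was seen at either.

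In the repeats of PLEKHA4 and SBF1 some tags lacked the deletion in both IPs. PLEKHA4 had 2 bases deleted in a repeat of 8 AG copies, with 5 of 11 tags mutated in IP 1 and, at the deeper base, 3 of 13 in IP 2. NFE2L2, the transcription factor NRF2 of the oxidative stress response, lost 3 bases of a repeat of 5 CCG copies, in 2 of 2 tags of IP 1 and 4 of 6 of IP 2. SBF1, a catalytically inactive relative of the myotubularin phosphatases, lost 3 bases of a repeat of 9 GCC copies, in 2 of 3 tags of IP 1 and 2 of 5 of IP 2. RPS6KA3, the growth factor-activated kinase RSK2, lost 6 bases, in 2 of 2 tags of each IP. All 4 deletions were listed over the same bases in both IPs.

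The spliceosome subunit gene SF3A3 lost 3 bases outside a repeat, in 3 of 5 tags of IP 1 and 2 of 6 of IP 2. AMOTL2, an angiomotin family member at cell junctions, lost 2 bases, also outside a repeat, in 3 of 8 tags of IP 1 and 2 of 4 of IP 2. Both had unmutated tags in each IP, unlike CTDNEP1 and ANXA11. The 3 shared insertions were in SRRM2, AHNAK and IGF1R. SRRM2, a spliceosome-associated protein, had the insertion in 2 of 7 tags of IP 1 and 3 of 5 of IP 2, at the last base of its first exon. AHNAK, a giant membrane-associated scaffold protein, had it in 2 of 3 tags of IP 1 and 4 of 9 of IP 2, at the base before the start codon. IGF1R, the receptor of insulin-like growth factor 1, had it in 5 of 6 tags of IP 1 and 2 of 2 of IP 2, at the edge of 6 AGG copies.

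**Figure D1:**
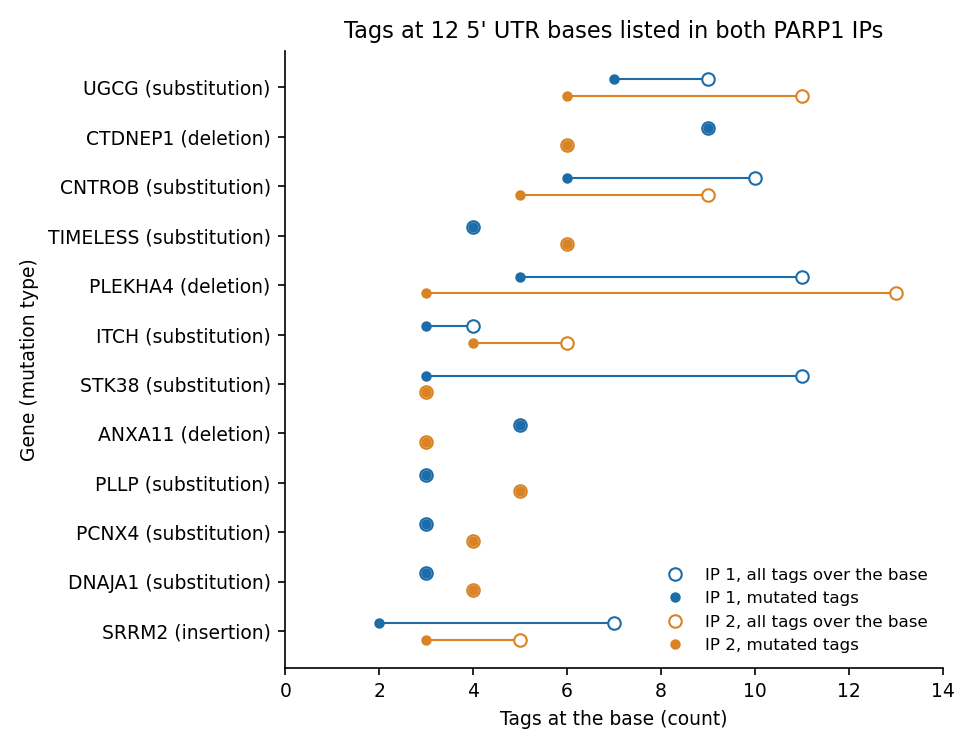
Tags at 12 5′ UTR bases listed in both PARP1 IPs (horizontal axis, count), 1 row a gene. Open circles are all tags over the base and filled circles the mutated ones, blue for IP 1 and orange for IP 2: CTDNEP1, TIMELESS, ANXA11, PLLP, PCNX4 and DNAJA1 had every tag mutated in both IPs, and PLEKHA4 had the most tags, 11 in IP 1 and 13 in IP 2.

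Deletions set the 5′ UTR apart in recurrence. Of the deleted 5′ UTR bases, 11.2% of those in IP 1 (23 of 206) and 8.49% of those in IP 2 (23 of 271) were in the other list, against 1.98% and 1.48% over all sites. Substitutions recurred at 8.95% and 9.37% in 5′ UTRs, against 4.81% and 3.43% over all sites. In coding sequence, substitutions recurred at 8.20% and 7.74%, in 3′ UTRs at 9.22% and 8.18%, and in noncoding exons at 9.80% and 8.33%. All of these lie within the intervals of the 5′ UTR values, and those of 3′ UTRs and noncoding exons in IP 1 are above the 5′ UTR value. Deletions recurred at 1.62% and 1.38% in coding sequence, 2.73% and 2.23% in 3′ UTRs and 2.82% and 2.36% in noncoding exons. Insertions were few, and their interval in 5′ UTRs ran from 1.54% to 19.9% in IP 1.

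Adjacent deleted bases come from the same tags, so deletions were also counted as runs. The 206 deleted 5′ UTR bases of IP 1 formed 118 runs and the 271 of IP 2 formed 146, with 10 runs in both IPs. That is 8.47% of the IP 1 runs (4.14% to 15.0%) and 6.85% of the IP 2 runs (3.33% to 12.2%). For deletion runs in coding sequence the shares were 0.712% (0.287% to 1.46%) and 0.546%, in 3′ UTRs 2.74% and 2.26%, and over all sites 1.64% and 1.26%. The lower bounds of the 5′ UTR shares lay above all of these values.

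**Figure D2:**
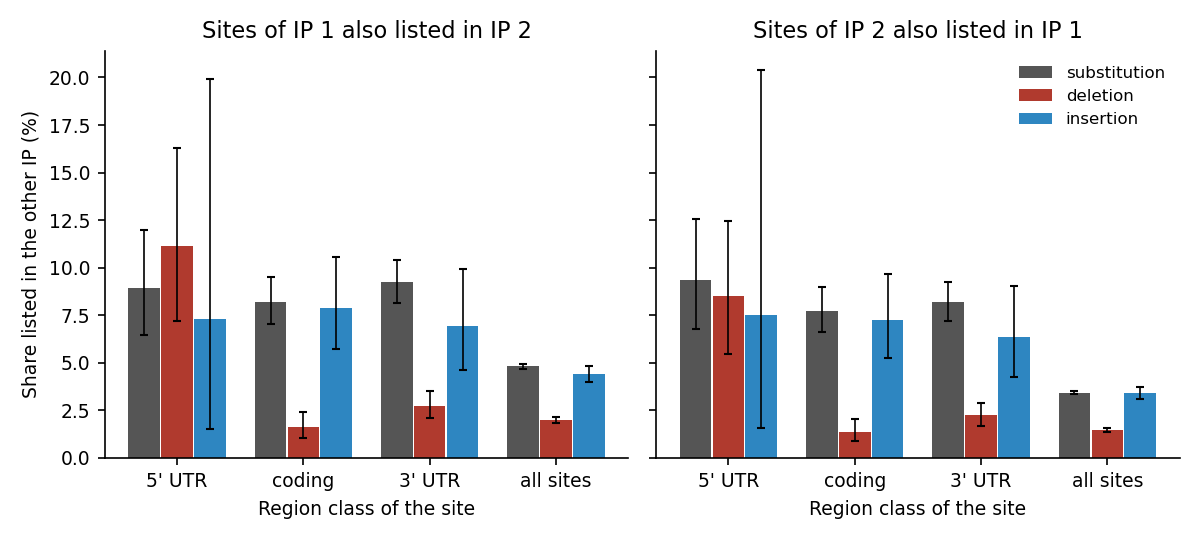
Share of sites that are also listed in the other IP (vertical axis, %), by region class and mutation type, for IP 1 sites (left) and IP 2 sites (right). Bars are 95% exact binomial intervals: deletions in 5′ UTRs recurred at 11.2% and 8.49%, against 1.98% and 1.48% for deletions over all sites, while substitutions in 5′ UTRs and coding sequence overlapped.

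Recurrence of 5′ UTR sites varied with the number of mutated tags. In IP 1 it was 7.12% at sites with 2 mutated tags, 20.3% with 3 and 16.9% with 4 or more. In IP 2 the same shares were 6.85%, 10.5% and 20.4%. At 2 mutated tags the 5′ UTR shares stood above those of coding sequence, 3.65% and 3.08%, and of 3′ UTRs, 4.34% and 3.36%. Exons of noncoding genes had 6.90% and 5.58% there, within the 5′ UTR intervals of 5.11% to 9.60% and 4.92% to 9.25%. At more mutated tags the order varied. With 3 in IP 2, coding sequence had 14.6% and 3′ UTRs 13.6%. With 4 or more in IP 1, coding sequence had 23.3% and 3′ UTRs 19.4%. All 4 of these lie above the 5′ UTR share and within its interval, 4.66% to 19.7% for the IP 2 sites and 9.31% to 27.1% for the IP 1 sites. By total depth there was no such order, since 8.06% of the 62 IP 1 sites and 5.36% of the 56 IP 2 sites with 10 or more tags were shared.

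The mix of mutation types in 5′ UTRs differed from that of the whole lists. Substitutions were 64.4% of 5′ UTR sites in IP 1 and 57.9% in IP 2, against 72.5% and 73.5% of all sites. Deletions were 29.7% and 36.7%, against 21.8% and 21.05% of all sites. Deletions were more frequent still in 3′ UTRs, at 41.3% and 43.8%, and in coding sequence at 37.4% and 38.5%.

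5′ UTR sites were deeper than the average listed site, close to those of coding sequence and 3′ UTRs, and deeper than those in exons of noncoding genes. Sites with 10 or more tags were 8.93% in IP 1 and 7.59% in IP 2, against 1.06% and 0.984% of all sites. The same share was 10.06% and 10.1% in coding sequence and 7.37% and 7.65% in 3′ UTRs, but 1.79% and 1.95% in noncoding exons. Sites with 2 tags, both mutated, were 58.1% and 54.6% of 5′ UTR sites, against 82.7% and 83.3% of all sites. Every tag was mutated at 70.5% and 68.7% of 5′ UTR sites, against 89.0% and 89.8% of all sites. Both shares were lower in coding sequence and 3′ UTRs. There 2 tags, both mutated, were seen at 48.4% and 47.3% of coding sites and at 54.0% and 51.9% of 3′ UTR sites. The IP 2 interval of that 5′ UTR share, 50.9% to 58.2%, holds the 3′ UTR value. Every tag was mutated at 56.1% and 55.4% of coding sites and at 63.6% and 61.5% of 3′ UTR sites. In noncoding exons both shares were higher than in 5′ UTRs, 74.4% and 73.6%, then 91.4% and 90.1%.

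Depth differed by mutation type within the 5′ UTR. The median was 2 tags at substitutions in both IPs, 5 and 4 tags at deletions, and 3 and 4 tags at insertions, IP 1 before IP 2. The 5′ UTR tags summed to 2716 in IP 1, of which 1758 were mutated, and to 2921 in IP 2, of which 1831 were mutated. A tag over several listed bases enters such a sum at each of them.

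The deep 5′ UTR bases named next were each listed in 1 IP. In IP 1 the deepest was in FOSL2, a Fos-family subunit of the transcription factor AP-1, with a substitution in 4 of 26 tags. ACTN1, the actin crosslinker of focal adhesions, followed with an insertion in 3 of 20. HSP90B1, the Hsp90 chaperone of the endoplasmic reticulum, had a substitution in 8 of 19, 28 bases before its start codon. In each, unmutated tags were the larger part. In IP 2, EIF6, which keeps the large ribosomal subunit from joining the small one, had a substitution in 5 of 18 tags, 21 bases before its start codon. TGFB1 had one in 3 of 18. None of these 5 genes had a shared base, and FOSL2 had a different base in IP 2, with an insertion in 2 of 9 tags.

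Bases with many mutated tags could still be in 1 list alone. CCNI, a member of the cyclin family, lost 6 bases in 13 of 17 tags in IP 1, with 18 tags at 1 of the 6 bases. The lysosomal protease gene CTSZ had an insertion in 13 of 14 tags in IP 1, which ties with CCNI. In IP 2, TMEM259 had 11 of 15 tags mutated, the microtubule-associated kinase gene MAST2 had 11 of 11, and WAC had 9 of 9. That such a base is missing from the other list does not show that it was unmutated there, because a list gives no depth at bases it leaves out.

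Runs of deleted 5′ UTR bases were more often a multiple of 3 bases long than deletion runs in coding sequence and over all sites. In IP 1, 65 runs were 1 base long, 33 were 2, 15 were 3, and 5 were longer. In IP 2 these were 83, 33, 17 and 13. Runs whose length is a multiple of 3 were 15.3% of 5′ UTR deletion runs in IP 1 (18 of 118) and 15.8% in IP 2 (23 of 146), against 6.10% and 5.92% in coding sequence and 5.19% and 5.52% over all sites.

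Tandem repeats held many of the deletions and insertions. A repeat here is 3 or more copies of a unit of 1 to 6 bases that spans at least 6 bases, read on the transcript. For this, 674 sites of IP 1 and 711 of IP 2 could be placed on an annotated transcript. Of the deleted 5′ UTR bases, 42.0% in IP 1 (35.1% to 49.0%) and 35.0% in IP 2 (29.2% to 41.1%) were in a repeat. Repeats covered 9.45% and 8.79% of all bases of the same 5′ UTRs. Of the insertions, 51.3% and 48.7% were in a repeat, against 9.37% and 10.3% of bases. For substitutions the shares were 5.58% and 5.83%, against 6.03% and 5.83% of bases.

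Counted as runs, 29.9% of deletions in IP 1 (21.8% to 39.1%, 35 of 117) and 25.4% in IP 2 (18.3% to 33.5%, 35 of 138) touched a repeat. Among runs of a multiple of 3 bases these were 14 of 18 in IP 1 and 14 of 23 in IP 2. Of runs of 2 or more bases, 41.5% and 41.7% touched a repeat. Of runs of 1 base it was 20.3% in IP 1 (11.3% to 32.2%) and 12.8% in IP 2 (6.32% to 22.3%). The IP 2 interval for runs of 1 base holds the 8.79% of bases that repeats covered. The rule for repeats asks for at least 6 bases, so a longer run has more chances to touch one.

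Counted as deleted bases, where a run enters with each of its bases, units of 3 bases were the most common. They held 48 bases in 14 genes in IP 1 and 42 bases in 14 genes in IP 2. Of these, 38 and 32 bases were in units of only C and G. Units of 1 base held 15 deleted bases in 13 genes of IP 1 and 11 in 8 genes of IP 2. Units of 2 bases held 6 in 4 genes and 16 in 9 genes, so the order of these 2 unit lengths differed between the IPs. Counted as genes, units of 1 base came close to units of 3 bases in IP 1. The low-density lipoprotein receptor relative VLDLR had the longest run, 9 bases or 3 of its 8 CGG copies, in 2 of 2 tags of IP 1.

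The genes with the most 5′ UTR bases were led by runs of deleted bases. By the rule above, the deletion runs of SLC1A5, SPSB1, TMEM105 and YWHAH lay outside repeats. VLDLR had 9 bases, all in IP 1. SAV1, a scaffold of the Hippo pathway, had 8, made of a 6-base deletion of a TGGCCC copy in IP 2 and 2 substitutions in IP 1, each with 2 tags. SLC1A5, a glutamine transporter, had 8 in IP 2, with 6 adjacent deleted bases in 3 of 9 tags, a substitution in 3 of 11 tags and a further deleted base.

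With 7 bases each followed BRWD1, CCNI, SPSB1, TMEM105 and YWHAH. BRWD1, a chromatin protein with bromodomains, had a 4-base deletion in 2 of 7 tags of IP 1 and, at another repeat, a 3-base deletion in 4 of 6 tags of IP 2. The ubiquitin ligase adaptor SPSB1 had a 6-base deletion in 3 of 3 tags of IP 2 and a substitution. TMEM105 and YWHAH, a 14-3-3 protein, each had a 7-base deletion in 2 of 2 tags of IP 2. The repeat of YWHAH has a unit longer than 6 bases and was not counted above. None of these 8 genes had a base in both lists, although SAV1 and BRWD1 had sites in each.

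**Figure D3:**
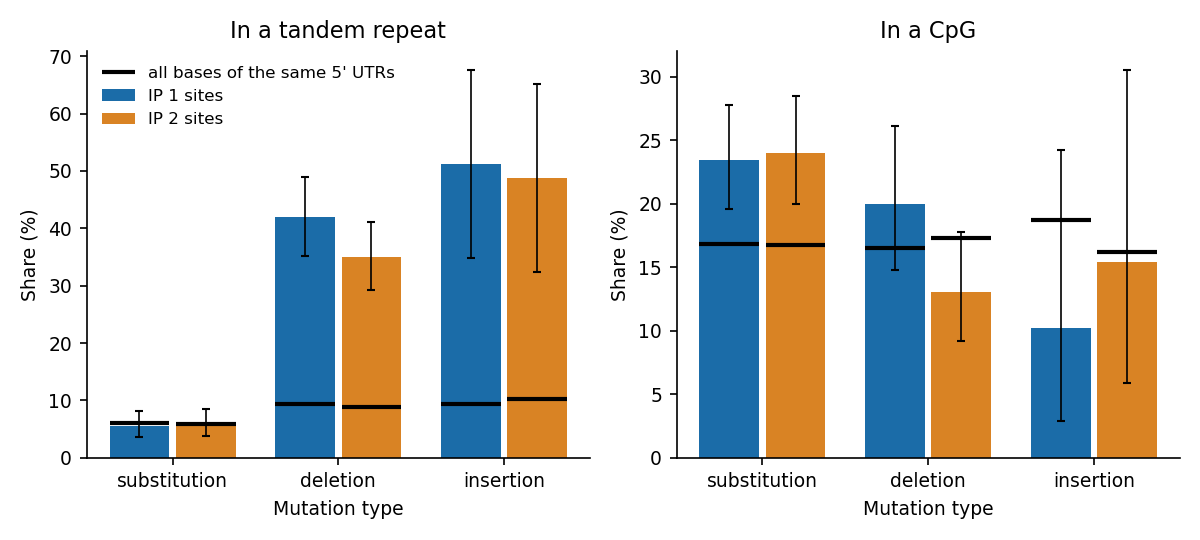
Share of 5′ UTR sites in a tandem repeat (left) and in a CpG (right) by mutation type (vertical axes, %), blue for IP 1 and orange for IP 2, with 95% exact binomial intervals. Black lines give the share of all bases of the same 5′ UTRs: deletions and insertions lay in repeats more often (42.0% and 35.0% of deleted bases), and substitutions lay in CpGs at 23.5% and 24.0%.

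Substitutions in 5′ UTRs lay at CpG dinucleotides more often than the bases of the same 5′ UTRs in general. In IP 1, 23.5% of substituted bases were in a CpG (19.6% to 27.8%), against 16.8% of all bases of the same 5′ UTRs. In IP 2 it was 24.0% (20.0% to 28.5%), again against 16.8%. Among the shared substitutions it was 17 of 39 placed ones, with UGCG, CNTROB, ITCH and PLLP among them. For deletions the order differed between the IPs, 20.0% against 16.6% in IP 1 and 13.1% against 17.3% in IP 2.

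Deleted 5′ UTR bases were more often T and less often G than their surroundings. T made up 35.1% of them in IP 1 and 35.8% in IP 2, against 19.4% and 17.5% of bases of the same 5′ UTRs. G made up 22.4% and 21.5%, against 31.8% and 32.2%. The deleted base of CTDNEP1 is such a T, while ANXA11 lost a C.

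Upstream reading frames, which start at an ATG in the 5′ UTR and run to their first stop, held 25.3% of substituted bases in IP 1 and 26.0% in IP 2. They covered 29.1% and 26.3% of bases of the same 5′ UTRs, and both of these lay within the intervals of the site shares (21.3% to 29.7% and 21.8% to 30.5%). Of the 65 shared bases that could be placed, 18 were in such a frame, among them those of ITCH, PCNX4, SF3A3, SBF1, RPS12 and REST, the repressor of neuronal genes.

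Insertions were the type most often near an exon junction. Within 5 bases of a junction lay 4 of 39 placed insertions in IP 1 (10.3%, 2.87% to 24.2%) and 11 of 39 in IP 2 (28.2%, 15.0% to 44.9%), against 1.70% and 2.44% of bases. SRRM2 and AHNAK are the genes in which such an insertion was in both lists. Substitutions were there at 2.09% and 1.94%, against 1.87% and 1.83% of bases. The IPs differed in this count, and their intervals overlap.

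Along the 5′ UTR the sites were spread rather evenly. The median distance to the start codon was 155.5 bases in IP 1 (quartiles 71.25 and 298.75) and 169 bases in IP 2 (74 and 327). To the transcript start it was 180.5 and 181 bases. With the 5′ UTR cut into 5 equal parts from the transcript start to the start codon, the shares in IP 1 were 16.9%, 17.5%, 20.6%, 22.7% and 22.3%, and in IP 2 they were 19.0%, 19.0%, 20.7%, 20.4% and 21.0%. Within 50 bases of the start codon lay 19.4% of IP 1 sites and 14.6% of IP 2 sites, against 17.4% and 16.2% of all bases of the same 5′ UTRs, so the order differed between the IPs.

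**Figure D4:**
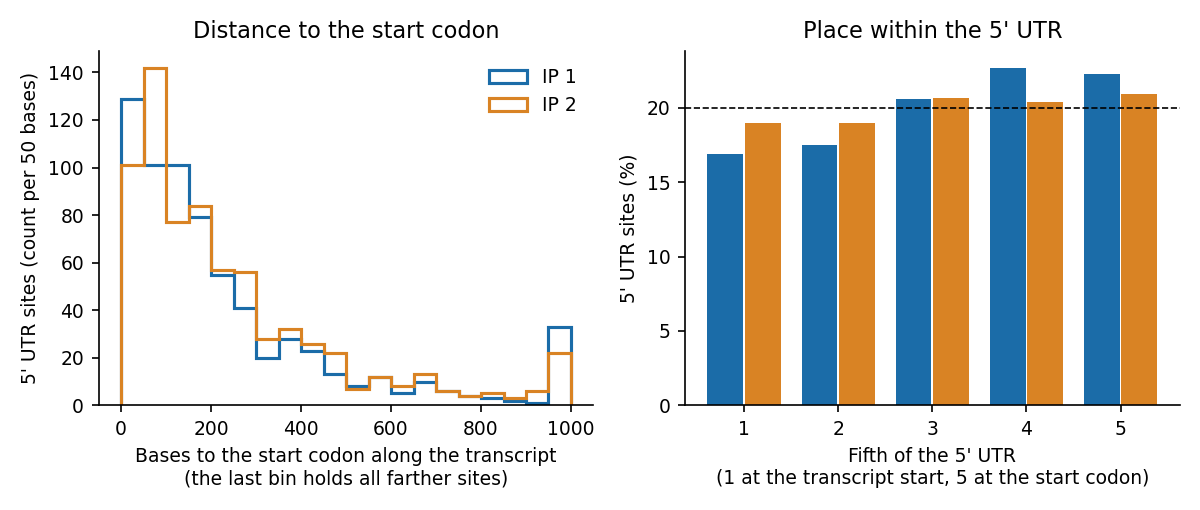
Left, 5′ UTR sites by distance to the start codon along the transcript (horizontal axis, bases, the last bin holds all farther sites) as a count per 50 bases, blue for IP 1 and orange for IP 2. Right, the share of sites in each of 5 equal parts of the 5′ UTR (%), with a dashed line at an even spread: shares ran from 16.9% to 22.7% in IP 1 and from 19.0% to 21.0% in IP 2.

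The sites nearest the start codon included DAP, an inhibitor of autophagy, with a substitution 2 bases before it in 2 of 2 tags of IP 1. MAP1LC3B, the autophagosome protein LC3B, had a shared substitution 6 bases before it, with 2 of 2 tags mutated in each IP. TCEA3, a transcription elongation factor, had one 14 bases before it, in 6 of 6 tags of IP 1 and 2 of 2 of IP 2. KRT8, a keratin of simple epithelia, had one 4 bases before it, in 4 of 4 tags of IP 1 and in no listed base of IP 2, and 50 annotated pseudogenes carry its name.

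The first exon held 86.8% of placed sites in IP 1 and 86.2% in IP 2, against 85.6% and 84.3% of bases. The 51 bases around a site had a median G and C content of 68.63% in IP 1 and 64.86% in IP 2. Of the sites the authors class as 5′ UTR, 94.5% in IP 1 and 93.4% in IP 2 lay in a 5′ UTR of the GENCODE annotation. That annotation places 993 sites of IP 1 and 990 of IP 2 in a 5′ UTR, of which 322 and 287 are in the authors' intron class.

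Genes were counted next. A 5′ UTR site was listed in 541 genes in IP 1 and 549 in IP 2, of which 539 and 546 are among the 19951 annotated protein-coding genes, or 2.7% and 2.74%. Both IPs had one in 87 genes, 0.436% of protein-coding genes, which is 16.1% of the IP 1 genes and 15.8% of the IP 2 genes. Of these 87, 50 shared a base and 37 had different bases. Most genes had 1 site, 439 in IP 1 and 433 in IP 2, and 30 and 37 had 3 or more.

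The 37 genes without a shared base include regulators of signalling and transcription. They were chosen for mention after their values were seen. GSK3B, the kinase of the Wnt and insulin pathways, had deletions in up to 10 tags in IP 1 and in 13 tags in IP 2, with 2 mutated at each. TCF7L2, a Wnt-responsive transcription factor, had 5 tags at a deletion in IP 1 and 3 at an insertion in IP 2. STAT6, the transcription factor of interleukin 4 signalling, had 4 of 6 tags substituted in IP 1 and 2 of 2 in IP 2, at another base. AKIRIN2, a nuclear import factor for proteasomes, had 3 of 7 in IP 1 and 7 of 17 in IP 2, also at another base.

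Genes with a 5′ UTR site had long 5′ UTRs. The median annotated length, from 1 transcript a gene, was 346 bases in 989 genes with a site, against 183 bases in 18057 genes without. By length, the share of genes with a site was 0.763% in IP 1 and 0.404% in IP 2 for 5′ UTRs of up to 50 bases, and 6.01% and 6.58% for those over 400 bases. For sites in both IPs the same classes gave 0.0449% and 1.19%. A longer 5′ UTR has more bases that can be listed, and the level of each mRNA was not measured here. Whether length accounts for these differences was not tested.

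**Figure D5:**
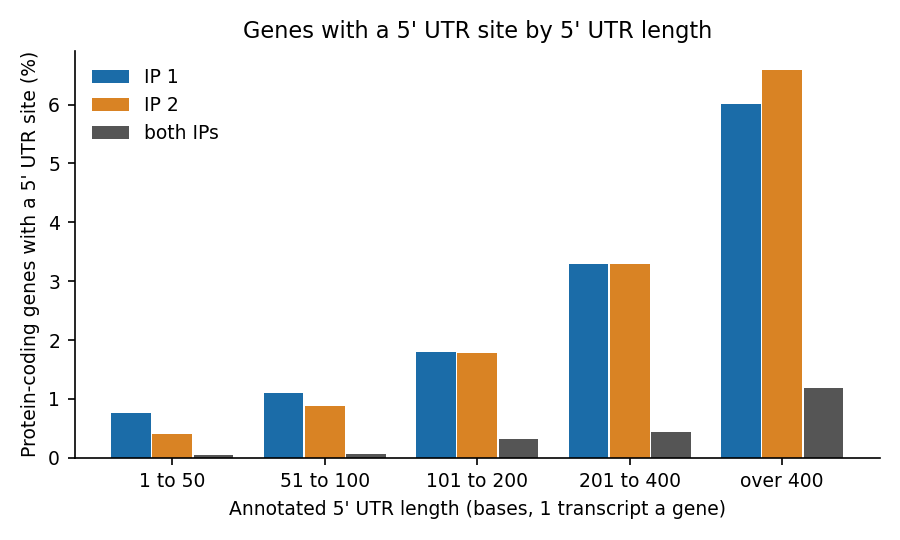
Share of protein-coding genes with a 5′ UTR site (vertical axis, %) by annotated 5′ UTR length (horizontal axis, bases, 1 transcript a gene), for IP 1, IP 2 and both. The share went up with each length class, to 6.01% in IP 1, 6.58% in IP 2 and 1.19% in both for 5′ UTRs over 400 bases.

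The same genes were often listed elsewhere along the transcript. Of the genes with a 5′ UTR site, 24.6% in IP 1 and 28.8% in IP 2 also had a coding site, against 13.0% and 14.0% of all protein-coding genes. For 3′ UTR sites the shares were 26.2% and 26.6%, against 14.3% and 16.0%. For intron sites they were 81.3% and 81.8%, against 52.5% and 56.4%. No other sense-strand site was listed for 70 genes in IP 1 (12.9%) and 68 in IP 2 (12.4%).

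Among matrix genes, which the series title names, 7 had a 5′ UTR site in 1 IP and 0 in both. Of 53 structural matrix genes, 1 had a site in IP 1 (1.89%) and 3 in IP 2 (5.66%), against 2.7% and 2.74% of protein-coding genes. SPARC, a collagen-binding glycoprotein, had a substitution in 2 of 2 tags of IP 1. COL4A1, a chain of basement membrane collagen, had a deletion in 2 of 9 tags of IP 2, 51 bases before its start codon. FBN2, a microfibril protein, had a deletion in 2 of 2 tags of IP 2. THBS1, which releases TGF-beta from its latent form, had a substitution in 4 of 4 tags of IP 2. A single gene is 1.89% of this list, more than the 0.436% of protein-coding genes with a site in both IPs, so a count of 0 in both is near the background.

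Of 36 matrix modifying enzymes and inhibitors, 3 had a site in IP 1 (8.33%, against 2.7%) and 0 in IP 2, where a count of 0 allows up to 8.33%, above the background of 2.74%. P4HB, the beta subunit of collagen prolyl hydroxylase, had a substitution in 4 of 9 tags, 13 bases before its start codon. Its partner P4HA1 had one in 2 of 2 tags, and the metalloproteinase inhibitor TIMP2 one in 5 of 5. Of 39 integrin and TGF-beta signalling genes, 2 had a site in each IP (5.13%, against 2.7% and 2.74% of protein-coding genes). In IP 1 they were ACTN1, given above, and ITGB8, an integrin subunit that activates TGF-beta, with 2 of 2 tags. In IP 2 they were SMAD6, an inhibitor of the pathway, with 2 of 5 tags, and TGFB1, its main ligand in kidney fibrosis, with a deletion in 2 of 11 tags, a substitution in 3 of 18 and an insertion in 4 of 15. TGFB1 was thus the list member with the most 5′ UTR sites at separate places, all in IP 2.

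Translation genes with a 5′ UTR site were few, so their shares rest on few genes. Of 84 genes of the terminal oligopyrimidine class, whose 5′ ends make them respond to growth signals, 3 had a site in IP 1 (3.57%), 5 in IP 2 (5.95%) and 1 in both (1.19%), against 2.7%, 2.74% and 0.436% of protein-coding genes. RPS12, a protein of the small ribosomal subunit, was the shared one, with 2 of 2 tags in each IP, and 15 annotated pseudogenes carry its name. PABPC1, the poly(A)-binding protein, had the most tags of the list, with an insertion in 2 of 10 in IP 2. RPS29 in IP 1, and RPS10, RPL21 and RPL28 in IP 2, had 2 of 2 tags each.

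Of 39 genes listed as initiation factors and their regulators, 1 had a site in IP 1 (2.56%) and 2 in IP 2 (5.13%). The background was 2.7% and 2.74%, a single gene is 2.56% of this list, and a count of 0 would allow up to 7.69%. EIF1, which keeps start codon choice strict, had 3 bases deleted in 2 of 14 tags of IP 2, EIF3B, a subunit of the scaffold factor eIF3, had 3 of 3. The IP 1 gene of this list is DAP, given above, which is not an initiation factor, and EIF6 was not on the list. Of 21 genes known for regulatory upstream reading frames, 1 had a site in IP 1 (4.76%) and 2 in IP 2 (9.52%). The shares of protein-coding genes were 2.7% and 2.74%, and a count of 0 would allow up to 14.3% of this list. SLC7A1, an arginine transporter, lost 5 bases in 6 of 7 tags of IP 1, inside an upstream frame and a repeat of 4 CCCCG copies. TYMS and CDKN1B had 2 of 2 tags each in IP 2.

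Immediate early genes, which growth factors and stress switch on within minutes, had the highest share of the 10 lists. Of 24, 5 had a site in IP 1 (20.8%), 3 in IP 2 (12.5%) and 2 in both (8.33%), against 2.7%, 2.74% and 0.436% of protein-coding genes. A count of 0 would allow up to 12.5% of this list, which equals the IP 2 share, so these shares rest on few genes. The 24 genes had a median 5′ UTR length of 268.5 bases, against 183 bases in genes without a site. The share of genes with a site went up with that length. FOSL2 and JUN were in both IPs at different bases. JUN, a subunit of AP-1, had a deletion in 2 of 7 tags of IP 1 and a substitution in 3 of 3 of IP 2, in a 5′ UTR of 1257 bases. Among the other AP-1 subunits, FOSL1 had a substitution in 4 of 4 tags of IP 1. JUND had a deletion in 3 of 10 tags of IP 1, and FOS a substitution in 2 of 2 tags of IP 2. The sixth gene, the nuclear receptor NR4A1, had a deletion in 2 of 3 tags of IP 1. No base of these 6 genes was in both lists, and this list was chosen with earlier results of these data known.

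Of 20 genes with a reported internal ribosome entry site, 2 had a site in each IP (10.0%) and JUN had one in both (5.0%). Of protein-coding genes, 2.7% had one in IP 1, 2.74% in IP 2 and 0.436% in both. A count of 0 would allow up to 15.0% of this list. BCL2, an inhibitor of apoptosis, had 2 of 2 tags in IP 1. Of 32 proximal tubule and injury genes, 1 had a site in each IP (3.125%, against 2.7% and 2.74% of protein-coding genes). These were KRT8 in IP 1 and GGT1, the brush border gamma-glutamyltransferase, in IP 2, with 2 bases deleted in 2 of 10 tags. The lists hold no expression levels, so the tubular identity of the line could not be checked in them. Of 36 DNA repair and ADP-ribosylation genes, 0 had a 5′ UTR site in either IP, which allows a share of up to 8.33%, above the background share. PARP1 itself had none. The count holds for the genes of that list only. Among repair genes outside it, named after their values were seen, FANCE had a site with 2 of 2 tags mutated in IP 1. In IP 2, APEX1 had a site with 2 of 9 and ALKBH3 one with 2 of 2, and RTEL1 had 3 bases. A gene without a listed site may still have been recovered.

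Genes with a pseudogene named after them held 93 sites in IP 1 (13.4%) and 90 in IP 2 (12.2%). The same share over all sites was not computed, and copies under other names were not counted. Among the genes described, those with such a pseudogene include DNAJA1, SF3A3, SBF1, RPS12, EIF1 and KRT8. Whether reads of their copies contribute to the tags was not tested.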

How the data were processed

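The samples were 2 PARP1 IPs and 2 inputs of HK-2 cells, and the site list of each IP was analysed. The submitters' processing notes name bcl2fastq, TopHat2 and the GRCh38 build. Not given in the sources used here are the site caller, its thresholds, any removal of duplicate reads and the handling of multiply mapped reads.

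Per the file headers, the authors deposited counts per base: tags over the base and mutated tags among them, neither normalised. The deposited score equalled the number of mutated tags. The deposited FDR, a false discovery rate, was used only in an alternative. It reached 0.00833 in IP 1 and 0.00926 in IP 2 among the 5′ UTR sites. Every listed base had at least 2 mutated tags. Depth is known only at listed bases. Counts of amplified reads without molecular identifiers are not counts of independent molecules.

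Sites entered as single-base peaks, and those at the same base and strand counted as shared. Sites were placed on 1 GENCODE release 29 transcript each (the basic, principal and longest coding one that holds the base in its 5′ UTR), 986 transcripts in all. The 20 IP 1 and 27 IP 2 sites that could not be placed have no position or sequence features. Each feature share is set beside the share of all bases of the same 5′ UTRs, with every site counting its own 5′ UTR. Gene symbols came from GENCODE. Of 384 members of 10 gene lists, 1 was not matched and was left out.

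The members and the lists were chosen with earlier results of these data known, so list counts are descriptions. Named bases and genes are the 12 shared bases with the most mutated tags in the weaker IP (1 a gene), the genes with the most 5′ UTR bases, the deepest bases, the bases of 1 list with the most mutated tags, genes of the lists, and PARP1. The rule takes 6 genes by number of bases. Its last place was tied at 7 bases, so all tied genes are named. For lists it takes up to 4 genes in both IPs or else up to 2, and the further list genes, CTSZ, the other shared bases, the genes near the start codon and the genes in both IPs without a shared base were named after their values were seen. Some selected genes are not reported here.

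Intervals are exact (Clopper-Pearson) at 95%, and the limit for a count of 0 is 3 counts. Alternatives were a stricter threshold, substitutions only, other overlap rules, the class read from the annotation and leaving out each IP. Merging adjacent deleted bases, leaving out repeats and another choice of transcript were added after the data were seen. The matching of bases, merging of runs, placement on transcripts and repeat search were tested on simulated data with known answers, and 5 of 5 checks were recovered in full. Python 3.11.15, pandas 2.3.3, numpy 2.4.6, scipy 1.17.1 and matplotlib 3.10.9 were used.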

Additional observations from a re-analysis of the deposited data

How the results depend on the processing

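Recurrence of 5′ UTR sites kept to a narrow range under every alternative run, from 8.06% to 11.2% of IP 1 sites and from 7.10% to 9.89% of IP 2 sites. Apart from substitutions only and runs of deletions, the shares of other region classes were not recomputed, so the difference from them was not checked. Without sites in tandem repeats the IP 1 interval began at 6.34%, just below the 6.36% of all 3′ UTR sites. The share of 5′ UTR sites among all sites, 0.369% as the mean of the IPs, was 0.583% when sites at each list's most common FDR or above were left out, 0.974% among sites with 3 or more mutated tags and 0.514% with the class read from the annotation. Reading the class from the annotation also changed the share with 2 tags, both mutated, to 60.8% from a mean of 56.3%, with 10 or more tags to 6.45% from 8.26%, and with every tag mutated to 73.2% from 69.6%. Without sites in tandem repeats those shares were 61.2%, 6.20% and 75.7%, and substitutions were 70.9% of sites in place of 61.1%, since repeats hold many deletions and few substitutions. Genes with a site in at least 1 IP, 1003 as reported, were 495 without the sites at that FDR, 890 without repeats, 237 with 3 or more mutated tags, and 541 to 549 when either IP was left out. With either IP left out, substitutions were 57.9% to 64.4% of sites, sites with 2 tags, both mutated, 54.6% to 58.1%, those with 10 or more tags 7.59% to 8.93%, and those with every tag mutated 68.7% to 70.5%. Genes in both IPs, 87 as reported, were 31, 13, 55 with substitutions only and 149 with the class from the annotation. The mean of the median distances to the start codon, 162.25 bases, was 144 bases with the transcript whose start codon is nearest. These settings keep fewer or more sites by construction. In all, 48 recomputed values stayed close to the reported one and 19 moved. For recurrence, close means inside the reported 95% interval. For other shares and distances it means within 1 SD of the 2 IPs, and for counts of genes within 1.5 times. Leaving out 1 IP cannot move a share or distance by more than that SD, so those values were close by construction. Accepting the 5′ UTR class anywhere in the authors' region label gave the same values, so these could not move either. The count of 48 therefore does not measure robustness. No paired analysis was possible because the inputs were not analysed and the results come from no test between groups. The number of tags limits what can be said of a single base, and most shared bases rest on few tags.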

Other observations

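NMNAT3, an enzyme of NAD synthesis, had 2 shared substitutions in its 5′ UTR. One had 5 of 5 tags mutated in IP 1 and 2 of 2 in IP 2, and the other 3 of 3 and 2 of 2. FARS2, the mitochondrial phenylalanine tRNA synthetase, also had 2 shared substitutions, each with 2 of 2 tags in IP 1 and 4 of 4 in IP 2. Both genes were picked after their values were seen, and these counts carry no test.

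The inositol trisphosphate receptor gene ITPR2 had a shared substitution with 8 of 10 tags mutated in IP 1 and 2 of 2 in IP 2. NOCT, a circadian phosphatase, had 6 of 6 in IP 1 and 2 of 2 in IP 2. In IP 2, insertions within 5 bases of an exon junction and 3 to 6 bases before the start codon were listed in MYLK and SLC25A3, each with 2 of 6 tags mutated, in ADNP with 2 of 9 and in EPHX1 with 3 of 3. None of these 4 bases was listed in IP 1.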
